A study of Mus musculus with 3 samples.

Results

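Collagen genes are described here by the accessible chromatin found over them in mouse whole brain. They were taken as all protein-coding genes whose symbol is Col, a number, the letter a and a number, which gave 44 of the 21631 protein-coding genes on chromosomes 1 to 19 and X. The 44 were grouped as 11 fibrillar genes, 6 basement membrane genes (Col4), 6 Col6 genes and 21 others. The rule reads gene symbols and uses no measured value.

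Open chromatin was measured by combinatorial indexed ATAC-seq of single nuclei, which are tagged by the Tn5 transposase with 1 barcode and receive another during PCR in a nanowell chip. All 3 libraries, named sciATACv1, sciATACv2 and sciATACv3 and called v1, v2 and v3 below, were made from whole brain of C57BL6 mice with no treatment or genotype named, and the labels give the same nuclei isolation and indexing for each. The sources used here do not state how the versions differ, nor how many animals were used or their sex and age. The deposited values are 1 list of peaks (accessible regions) per library, called over all nuclei, with 622754, 850991 and 512023 peaks in v1, v2 and v3. The lists covered 454, 669 and 490 Mb of the genome, the median peak width was 500, 500 and 726 bp, and read depth is unknown. With 1 library per version there is no replicate spread to test a difference against, and no p-value is given. Because nuclei of all types were pooled before peaks were called, fewer cells of a type and less open chromatin per cell cannot be told apart.

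Collagens are secreted or membrane-bound proteins in which chains with glycine-rich repeats wind into a triple helix. Fibrillar collagens are trimmed outside the cell and pack into the fibrils of connective tissue, and in the brain they are known mainly from the meninges and from fibroblasts around vessels. Type IV collagen forms the sheet-like network of basement membranes, including that of brain vessels, and type VI forms beaded filaments beside it. Chains are modified by prolyl and lysyl hydroxylases and folded with the help of Serpinh1 before secretion.

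The window of a gene was its annotated span with 5 kb on each side. The median collagen window had 22.5, 40 and 21 peaks in the order v1, v2 and v3, against 8, 11 and 7 for the median protein-coding gene. Collagen genes are long, with a median window of 124 kb against 27.3 kb over all protein-coding genes. Per 10 kb of window, the collagen medians were 2.36, 4.5 and 2.35 peaks in v1, v2 and v3, and those of all protein-coding genes 2.97, 4.26 and 2.66. The 15105 protein-coding genes with windows within the length range of the collagens had medians of 3.37, 4.67 and 2.99 peaks per 10 kb. Their median window was 38.2 kb, still shorter than that of the collagens. The 5062 genes with windows between the quartiles of the collagens, with a median of 71.4 kb, had 3.76, 5.16 and 3.40. The collagen medians thus lay below those of both sets in each library, with the smallest gap in v2. In v2, 43 of 44 collagens had more peaks than in either other library, the exception being Col20a1. The v2 list is the longest, and most genes had more peaks in it. Of protein-coding genes with at least 10 peaks in a pair of libraries, 12955 of 15319 had more in v2 than in v1. Only 837 of 15107 had more in v3 than in v2, and 27.2% had more in v3 than in v1. Between the other libraries, 29 collagens had more peaks in v1, 14 had more in v3, and Col4a6 had the same number in both.

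**Figure D1:**
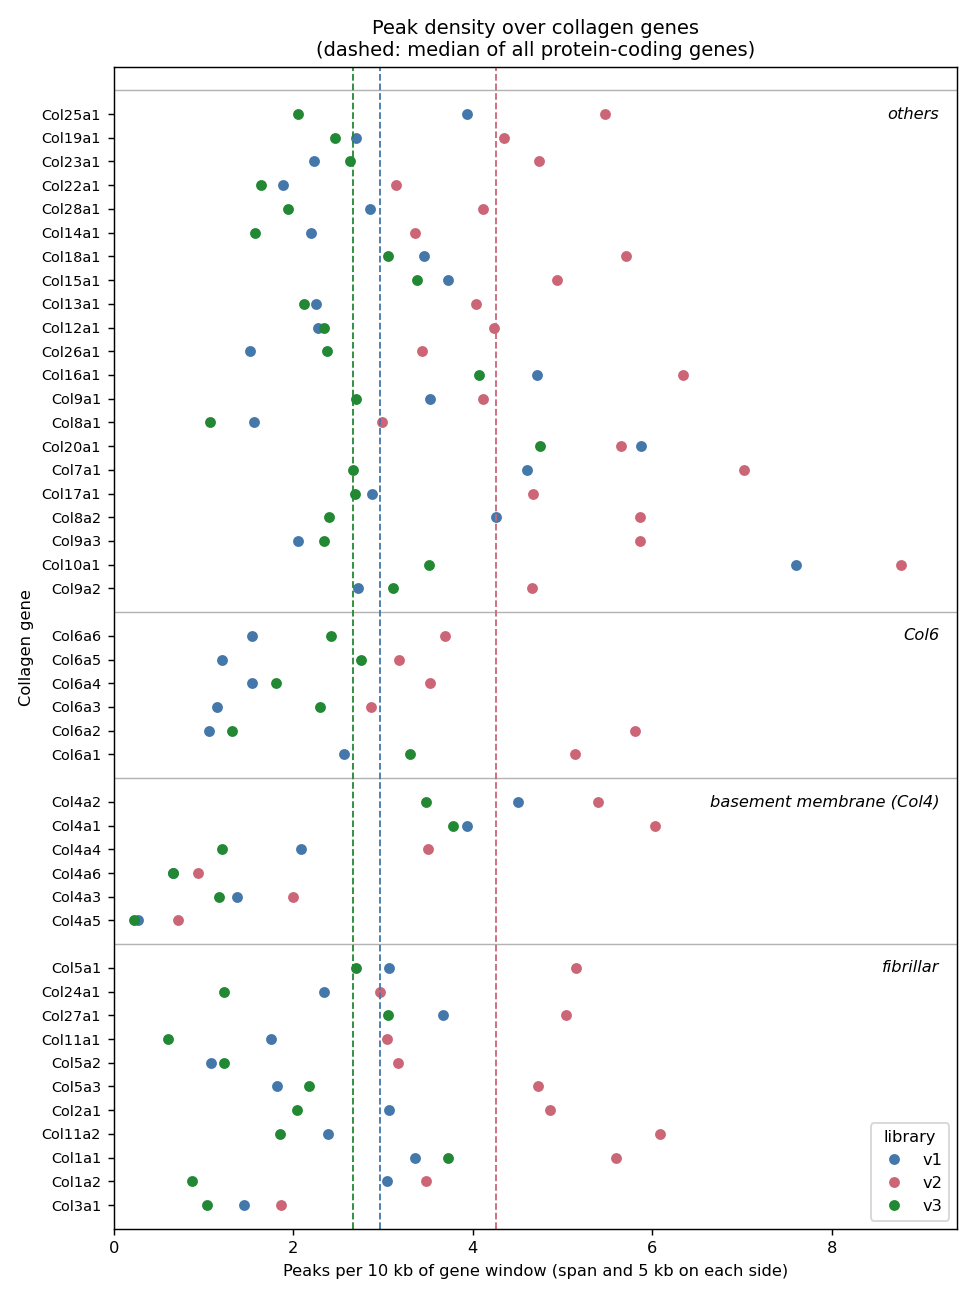
Peaks per 10 kb of gene window (horizontal axis) for each of the 44 collagen genes (rows, by group), with 1 point per library. Col10a1 and Col20a1 lie at the high end, Col4a5 and Col4a6 at the low end, and most genes lie highest in v2; dashed lines are the medians of all protein-coding genes.

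Most collagen genes had open chromatin at an end of their span. An end lay within 1 kb of a peak in 40 of 44 genes in v1 and in 44 of 44 in both v2 and v3, where 81%, 84.8% and 80.6% of all protein-coding genes had one. The 4 genes without such a peak in v1 were Col6a3, Col6a4, Col6a5 and Col6a6, so that 2 of the 6 Col6 genes had one there and all 6 in v2 and v3. RefSeq starts of transcription (GRCm38.p6) were listed for 35 of the 44 genes. That of Col6a5 did lie in a v1 peak, more than 1 kb inside the end of its span. A listed start lay inside a peak for 29 of 35 genes in v1 and for 32 in both v2 and v3, beside 70.9%, 76.2% and 71.5% of the 17274 protein-coding genes with a listed start. Among protein-coding genes with windows in the length range of the collagens, these shares were higher: 89.0%, 91.9% and 89.0% had a peak at an end and 80.9%, 85.1% and 81.5% of those with a listed start had it in a peak. In v1 the collagen shares, 90.9% for ends and 82.9% for starts, were thus close to those of this set. They lay below those of genes with windows between the quartiles of the collagens, 92.2% for ends and 86.2% for starts in v1. In v2 and v3 the collagen shares were 100% for ends and 91.4% for starts, above those of that set. Its shares were 94.6% and 89.1% in v2 and 92.3% and 86.8% in v3.

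Starts of Col1a2, Col3a1, Col4a1, Col4a2, Col6a1 and Col6a2 each lay in a peak in all 3 libraries. The start of Col3a1, which encodes the chain of type III fibrils, lay in peaks of 500, 655 and 1474 bp in v1, v2 and v3. For Col1a2, a chain of type I collagen, these widths were 1566, 2538 and 1447 bp. The Col6a1 start lay in peaks of 795, 1975 and 1606 bp, and both listed starts of Col6a2 in peaks of 1473, 1837 and 3009 bp.

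Listed starts of 3 genes lay in no peak of any library. For Col17a1, a transmembrane collagen of the hemidesmosomes of skin, the nearest peak was 12408, 349 and 6184 bp away in v1, v2 and v3. For Col28a1 it was 2234, 2215 and 2747 bp away, and for Col6a4 it was 2619, 1959 and 2143 bp away. A further 3 genes lacked a start peak in v1 alone. These were Col6a3, 1264 bp from the nearest v1 peak, Col6a6, 14895 bp away, and Col7a1, the anchoring fibril collagen, 154 bp away. The v3 peak over the Col7a1 start was 5429 bp wide, against 1147 bp in v2. Among genes with more than 1 listed start, the Col18a1 start at chromosome 10 position 77113705 had no v1 peak and the Col9a1 start at chromosome 1 position 24177610 had no v3 peak, the nearest being 41 bp away.

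The bases just before the start are shown for 6 genes whose start lay in a peak in all 3 libraries: the Col4a5 and Col4a6 neighbours, a pair of fibrillar genes and a pair of Col6 genes. Sequences are from RefSeq, build GRCm38.p6, 5′ to 3′ on the strand of the gene, and end just before the start, except that 49 bases at Col4a5 and 19 at Col4a6 that lie in an annotated gene span were left out. Capitals mark matches on either strand to the CCAAT box motif, to the GC box motif searched as GGGCGG, or to the TATA box motif searched as TATAAA. The bases left out hold a GC box at -30 from the Col4a5 start. They also cut one on the other strand at -21 from the Col4a6 start, so neither is marked. Col4a5 lies on the plus strand at chrX:141475169-141475369, Col4a6 on the minus strand at chrX:141474096-141474326, Col1a2 on the plus strand at chr6:4505368-4505617, Col3a1 on the plus strand at chr1:45311288-45311537, Col6a1 on the minus strand at chr10:76726045-76726294 and Col6a2 on the minus strand at chr10:76623631-76623880.
Col4a5: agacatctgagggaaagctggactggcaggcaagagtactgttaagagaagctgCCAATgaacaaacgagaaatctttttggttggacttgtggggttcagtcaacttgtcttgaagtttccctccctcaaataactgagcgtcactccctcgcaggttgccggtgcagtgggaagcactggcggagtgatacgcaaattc
Col4a6: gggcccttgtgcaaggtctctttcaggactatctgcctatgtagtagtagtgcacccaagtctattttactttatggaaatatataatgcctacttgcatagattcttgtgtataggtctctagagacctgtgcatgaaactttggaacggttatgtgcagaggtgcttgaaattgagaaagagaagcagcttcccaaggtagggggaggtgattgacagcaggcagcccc
Col1a2: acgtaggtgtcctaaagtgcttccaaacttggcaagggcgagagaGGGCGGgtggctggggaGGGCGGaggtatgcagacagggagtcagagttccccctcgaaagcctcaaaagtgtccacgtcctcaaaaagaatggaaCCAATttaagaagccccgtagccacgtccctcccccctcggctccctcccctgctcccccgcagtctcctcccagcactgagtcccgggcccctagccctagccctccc
Col3a1: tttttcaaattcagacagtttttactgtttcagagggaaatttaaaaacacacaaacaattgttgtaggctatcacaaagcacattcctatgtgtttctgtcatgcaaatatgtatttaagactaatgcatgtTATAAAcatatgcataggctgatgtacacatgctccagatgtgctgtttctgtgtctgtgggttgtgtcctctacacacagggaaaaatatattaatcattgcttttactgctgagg
Col6a1: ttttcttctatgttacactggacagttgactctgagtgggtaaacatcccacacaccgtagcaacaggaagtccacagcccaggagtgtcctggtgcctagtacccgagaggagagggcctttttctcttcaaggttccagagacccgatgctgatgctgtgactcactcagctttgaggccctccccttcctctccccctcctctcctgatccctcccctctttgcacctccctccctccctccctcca
Col6a2: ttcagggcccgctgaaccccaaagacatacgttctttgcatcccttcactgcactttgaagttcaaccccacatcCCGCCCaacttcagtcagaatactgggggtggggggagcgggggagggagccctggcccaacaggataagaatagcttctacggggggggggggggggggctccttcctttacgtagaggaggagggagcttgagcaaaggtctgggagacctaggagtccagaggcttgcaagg

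These starts differ in base composition although each lay in a peak. The Col3a1 stretch had 35.2% GC and 0 CpG dinucleotides, with TATAAA at -117 counted back from the start. The Col1a2 stretch had 62% GC and 11 CpG dinucleotides, with GGGCGG at -205 and -188 and CCAAT at -109. The Col6a1 stretch had 56% GC, 3 CpG dinucleotides and none of the 3 motifs, and that shown for Col6a2 had 59.2% GC, 6 CpG dinucleotides and GGGCGG on the other strand at -175. Col6a2 has another listed start at chromosome 10 position 76623404, whose sequence is not shown. The 250 bases before it had 64.4% GC, 14 CpG dinucleotides and GGGCGG on the other strand at -67, -15 and -11. Over the 38 listed collagen starts, the 250 bases before the start held the CCAAT motif on either strand in 34.2%, the GC box in 57.9% and the TATA box in 13.2%. Over all 21045 protein-coding starts these shares were 35.6%, 43.1% and 11.7%, with overlapping matches of a motif each counted. Median GC content was 59.0% before collagen starts and 55.6% before all starts. Among starts in a peak in all 3 libraries, 30 of collagens and 14290 of all protein-coding genes, it was 60.4% in both sets. The GC box was then found before 63.3% of collagen starts and 58.6% of all, a smaller gap. The TATA box was found before 13.3% (4 of the 30 collagen starts) and 6.12%. The median number of CpG dinucleotides was 10 before these collagen starts and 15 before all of these starts. A match of letters is no sign that a factor binds there.

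Peaks were compared between libraries as shares. The share ratio of a gene was the number of its peaks as a share of all peaks of one library over the same share in another, and its 95% interval is an exact conditional binomial one that covers counting error only. Windows of all 44 collagens together held 1395, 2272 and 1169 peaks, or 0.224%, 0.267% and 0.228% of each list. The collagen share of v2 was 1.19 times that of v1 (95% interval 1.11 to 1.27), and v3 stood at 1.02 times v1 (0.942 to 1.10) and 0.855 times v2 (0.796 to 0.918). Over all protein-coding windows the ratios were 0.943, 1.05 and 1.11. Collagen windows thus took a larger share in v2 than in the other lists, while protein-coding windows as a whole took their smallest share there.

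**Figure D2:**
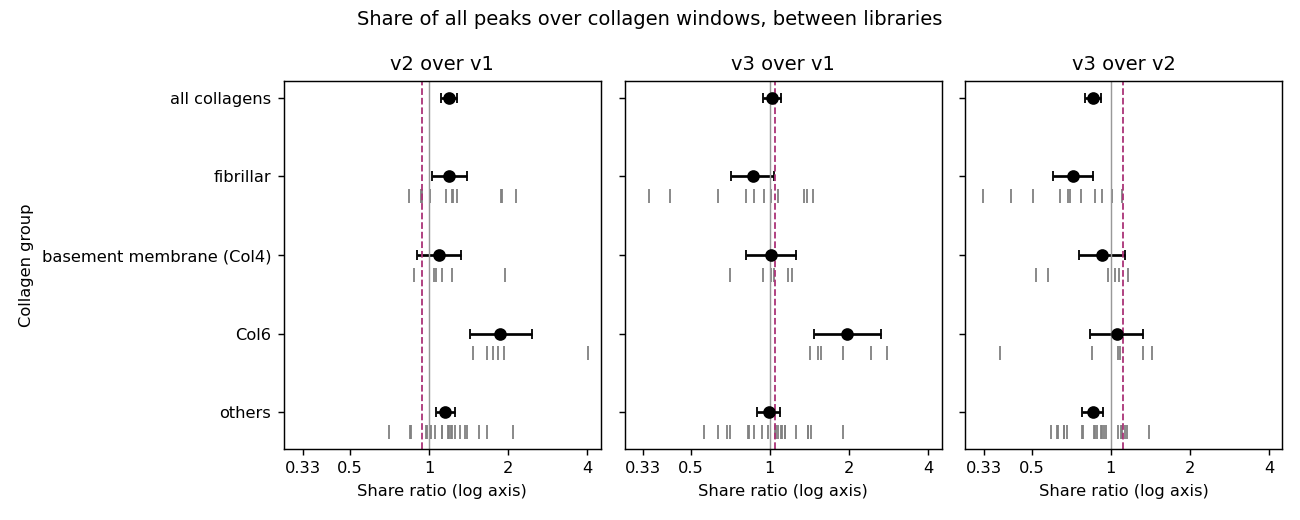
Share ratio of peaks (log axis) between each pair of libraries for the 44 collagens together and for each group. Bars are 95% intervals of counting error and small grey ticks are single genes. The solid grey line marks equal shares and the dashed line all protein-coding windows. The Col6 interval lies above 1 for both v2 and v3 against v1, and that of the fibrillar genes below 1 for v3 over v2.

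Against v1, the Col6 genes had the highest share ratios of the 4 groups, in v2 and in v3. With 76 (v1), 194 (v2) and 123 (v3) peaks over them, v3 had more of their peaks than v1 although its list is shorter. The share ratio was 1.87 (1.43 to 2.47) for v2 over v1 and 1.97 (1.47 to 2.66) for v3 over v1, while that of v3 over v2 was 1.05 (0.834 to 1.33). Both intervals lay above those of the other 3 groups in the same pair. With any 1 of the 6 genes left out, a choice made after seeing the data, the group stayed between 1.75 and 1.93 for v2 over v1 and between 1.79 and 2.14 for v3 over v1. Col6a4, Col6a5 and Col6a6 lie near each other on chromosome 9 and were not left out together, so the weight of that locus was not tested.

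Col6a1, Col6a2 and Col6a3 encode the chains of the common type VI heterotrimer, and Col6a4, Col6a5 and Col6a6 encode chains that can take the place of the Col6a3 chain. Col6a1 had 7, 14 and 9 peaks in v1, v2 and v3, and no ratio with an interval off 1. Its neighbour Col6a2 on chromosome 10 had 4, 22 and 5 peaks, high in v2 alone, with a v2 over v1 share ratio of 4.02 (1.37 to 16.1). Between v3 and v2 the Col6a2 ratio was 0.378 (0.112 to 1.02), a call lost with 20 kb flanks, and v3 over v1 was not counted because these libraries had 9 peaks together. Col6a3 had 10, 25 and 20 peaks, with v1 the lowest, and its v3 over v1 ratio was 2.43 (1.09 to 5.82). Among peaks wider than 500 bp the log2 ratio was 0.9998 (1.24 with all peaks), just under the threshold of 2-fold.

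The 3 genes on chromosome 9 had their lowest number in v1 as well. Col6a4 had 18, 41 and 21 peaks in v1, v2 and v3. Col6a5 had 14, 37 and 32 peaks, and its v3 over v1 ratio of 2.78 (1.44 to 5.64) was the highest of the 43 collagens counted in that pair. Col6a6 had 23, 55 and 36 peaks and a v3 over v1 ratio of 1.90 (1.10 to 3.36). By number of peaks, all 6 genes had more in v3 than in v1. Of the 43 collagens with at least 10 peaks in these libraries together, 13 did, 5 of them Col6 genes, where 27.2% of all protein-coding genes did.

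**Figure D3:**
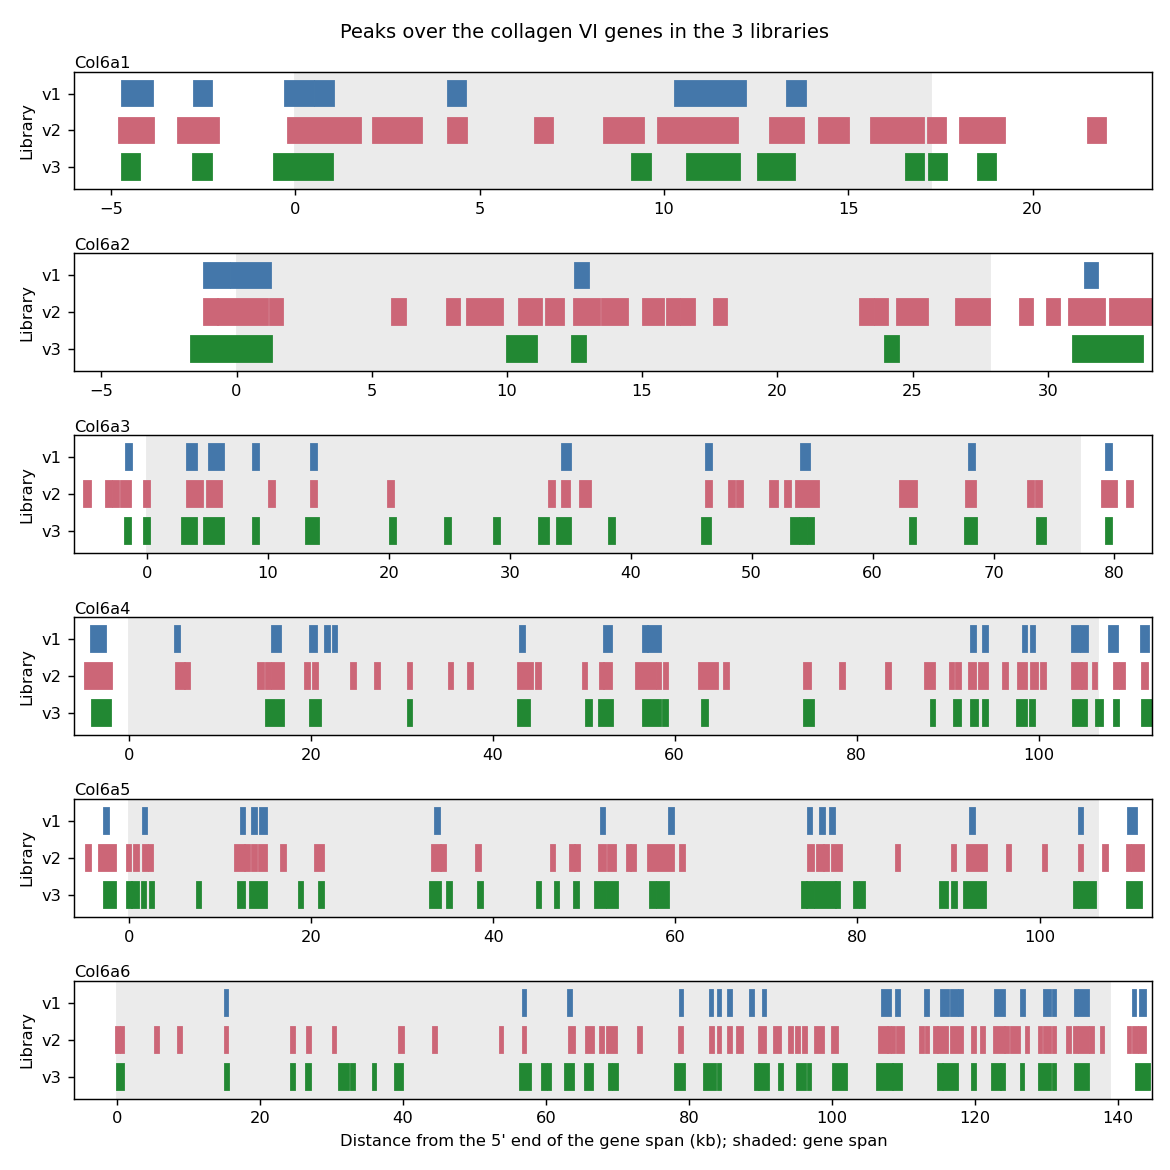
Peaks over the 6 Col6 gene windows in v1, v2 and v3 (rows), by distance along the window in kb. The shaded stretch is the gene span. Col6a2 holds 4, 22 and 5 peaks, and the v1 rows of Col6a3, Col6a5 and Col6a6 are the emptiest of the 3.

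Col6 is made in the brain by fibroblasts and mural cells of vessels among others, so the markers of vessel cells are given beside it. The 6 fibroblast markers together had 59, 54 and 43 peaks, or 0.00947%, 0.00635% and 0.00840% of each list, and 6, 6 and 5 of them had a peak at an end. The 6 mural cell markers held 75, 105 and 58 peaks (0.0120%, 0.0123% and 0.0113%), with a peak at an end for each. The 5 endothelial markers held 75, 125 and 96 peaks (0.0120%, 0.0147% and 0.0187%), and 4, 5 and 5 had a peak at an end. The endothelial share was thus lowest in v1 like that of the Col6 genes, and the fibroblast share was highest there. The skeletal muscle and hepatocyte lists had their lowest share in v1 too. The 5 skeletal muscle markers held 0.00578%, 0.00670% and 0.00801% of peaks, with a peak at an end for each in every library. Of these 2, Myh1 and Myh4, were past 2-fold higher in v3 than in v1, beside 3.26% of all protein-coding genes. Their ratios were 2.26 (0.838 to 6.69) and 2.74 (0.764 to 12.2), so both intervals included 1. The endothelial marker Flt1 was past 2-fold in the same pair, at 2.37 (1.33 to 4.36). The 5 hepatocyte markers held 0.00241%, 0.00294% and 0.00371%, with a peak at an end for 3 in every library. Of their 15, 25 and 19 peaks, 7, 9 and 9 lay over Ttr alone. The part of these markers in the Col6 result was not tested. The 6 neuron markers held 0.116%, 0.0925% and 0.126% of peaks, and each had a peak at an end in every library, as the muscle markers did, so a peak at an end is no check of the tissue.

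Over all peaks, fibrillar genes had their lowest share in v3. The numbers over them were 272 (v1), 443 (v2) and 192 (v3). The share ratio was 1.19 (1.02 to 1.39) for v2 over v1, 0.859 (0.710 to 1.04) for v3 over v1, and 0.720 (0.605 to 0.855) when v3 was set over v2. With any 1 gene left out the last stayed between 0.670 and 0.783. The share ratio of v3 over v2 was above 1 for 2 of 11 fibrillar genes, beside 64.3% of all protein-coding genes. Among peaks wider than 500 bp, v3 over v1 was 1.006 (0.759 to 1.34), v3 over v2 was 0.801 (0.629 to 1.02) and v2 over v1 was 1.26 (0.977 to 1.62), so that no interval stayed off 1. The mural marker share given above was also highest in v2 and lowest in v3, while that of fibroblasts was lowest in v2, and their part in the fibrillar result was not tested.

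The type I and III chains form the main fibrils of connective tissue. Col1a1 had 9, 15 and 10 peaks in v1, v2 and v3, Col1a2 had 14, 16 and 4, and Col3a1 had 7, 9 and 5. Col1a2 was thus low in v3 while Col1a1, which encodes the partner chain of the same fibril, was not. Col1a2 had a v3 over v1 share ratio of 0.348 (0.0833 to 1.11) and a v3 over v2 ratio of 0.416 (0.101 to 1.29), so both intervals included 1. Among peaks wider than 500 bp, and with flanks of 20 kb, Col1a2 was no longer past 2-fold in either pair.

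Col11a1, a chain of the thin fibrils of cartilage, had 35, 61 and 12 peaks in v1, v2 and v3. Its v3 share ratio was 0.417 (0.197 to 0.823) over v1 and 0.327 (0.160 to 0.613) over v2. Among peaks wider than 500 bp it was not past 2-fold. Col11a2 had 9, 23 and 7 peaks, with no interval off 1. Col5a1, Col5a2 and Col5a3 encode chains of type V collagen, which sits inside type I fibrils. They had 50, 84 and 44 peaks, 15, 44 and 17 peaks, and 10, 26 and 12 peaks. Col5a2 stood higher in v2 than in v1, with a ratio of 2.15 (1.17 to 4.15), which on the log2 scale was 1.08. With gene spans alone the log2 ratio was 0.98, just under 2-fold, and it was 0.73 when only wide peaks were counted.

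The cartilage collagen gene Col2a1 had 12, 19 and 8 peaks in v1, v2 and v3, and no interval off 1. Col24a1 had 63, 80 and 33 peaks, with a v3 over v1 ratio of 0.637 (0.405 to 0.986), and Col27a1 had 48, 66 and 40. Per 10 kb, the median fibrillar gene had 2.38, 4.72 and 1.85 peaks in v1, v2 and v3.

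The Col4 genes showed no difference between libraries larger than counting error as a group. Over them lay 183 (v1), 272 (v2) and 152 (v3) peaks, and the share ratios were 1.09 (0.899 to 1.32) for v2 over v1, 1.01 (0.809 to 1.26) for v3 over v1, with 0.929 (0.756 to 1.14) for v3 over v2. The 6 genes lie as 3 neighbouring pairs on chromosomes 8, 1 and X. Col4a1 and Col4a2, whose chains form the common type IV network of vessel walls, had 49, 75 and 47 peaks and 66, 79 and 51 peaks. Col4a3 and Col4a4, which with Col4a5 build the network of the kidney filter, had 20, 29 and 17 peaks and 31, 52 and 18 peaks. Col4a4 was low in v3, with a v3 over v2 ratio of 0.575 (0.317 to 0.9998). Col4a5 had 6, 16 and 5 peaks and Col4a6 had 21, 30 and 21.

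The listed starts of Col4a1 and Col4a2 are at chromosome 8 positions 11312826 and 11312805, and the gene spans overlap by 85 bp. Both starts lay in the same peak in each library. That peak was 1227 bp wide in v1 (chr8:11312074-11313300), 1809 bp in v2 (chr8:11311488-11313296) and 2646 bp in v3 (chr8:11311639-11314284), in mm10. The spans of Col4a3 and Col4a4 overlap by 114 bp, and those of Col4a5 and Col4a6 lie 1274 bp apart. Starts of Col4a5 and Col4a6, whose sequences are shown above, lay in separate peaks in all 3 libraries. They were 977, 1133 and 912 bp wide at Col4a5 and 788, 777 and 720 bp wide at Col4a6. Neighbouring windows share 3, 3 and 3 peaks at Col4a3 and Col4a4 as at Col4a5 and Col4a6, and 4, 3 and 1 at Col4a1 and Col4a2. Each shared peak entered a group count once.

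**Figure D4:**
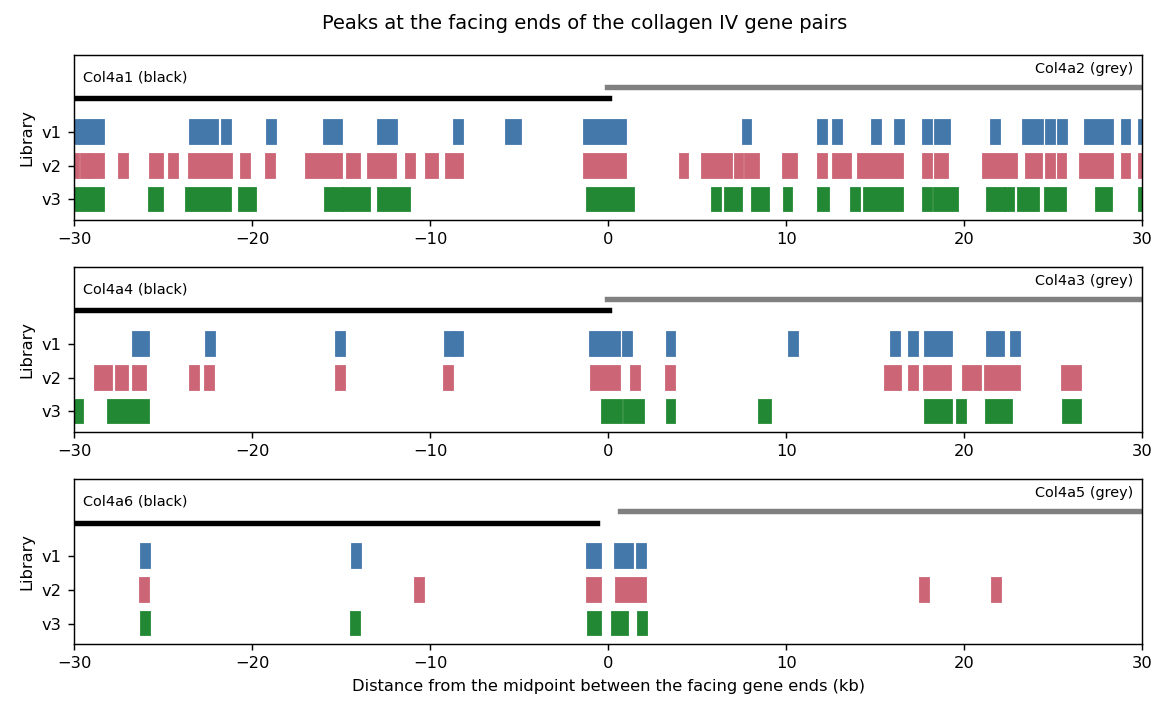
Peaks of the 3 libraries (rows) around the gap or overlap between the neighbouring Col4 genes, by distance in kb from its middle. The Col4a1 and Col4a2 starts lie in 1 peak per library, and the Col4a5 and Col4a6 starts lie in separate peaks.

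Per 10 kb, the X-linked pair was the sparsest of all collagens in v1 and v2, and in v3 Col4a5 and Col11a1 (0.599) were. Col4a5 had 0.268, 0.715 and 0.223 peaks per 10 kb in v1, v2 and v3 and Col4a6 had 0.659, 0.941 and 0.659. Medians of protein-coding genes on the X chromosome were 0.97, 1.84 and 0.87, so both genes lay below those as well. Col4a1 had 3.94, 6.03 and 3.78 and Col4a2 4.51, 5.39 and 3.48 peaks per 10 kb. The pair on chromosome 8 thus stood highest per length among the Col4 genes.

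The 21 other collagens together had 864, 1363 and 702 peaks, with share ratios of 1.15 (1.06 to 1.26) for v2 over v1, 0.988 (0.893 to 1.09) for v3 over v1, with 0.856 (0.780 to 0.938) for v3 over v2. The 6 with the most peaks on average were Col25a1, Col19a1, Col23a1, Col22a1, Col28a1 and Col14a1, which are among the longest. Col25a1, a transmembrane collagen made by neurons and found in amyloid plaques, had 169, 235 and 88 peaks. Its v3 over v1 ratio was 0.633 (0.484 to 0.824) and that of v3 over v2 was 0.622 (0.481 to 0.798), while v2 over v1 was 1.02 (0.832 to 1.25). Col23a1, another transmembrane collagen, went the other way between v1 and v3. It had 68, 144 and 80 peaks, with ratios of 1.55 (1.15 to 2.10) for v2 over v1 and 1.43 (1.02 to 2.01) for v3 over v1. The remaining transmembrane genes, Col13a1 and Col17a1, had 34, 61 and 32 peaks and 16, 26 and 15 peaks, with no interval off 1.

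Fibril-associated collagens, which coat fibrils, held ratios near 1 for v3 over v1 (1.05, 0.896 to 1.23). Col19a1 had 92, 148 and 84 peaks, Col22a1 had 69, 115 and 60, and Col14a1 had 49, 75 and 35. Col12a1 and Col16a1 had 30, 56 and 31 peaks and 29, 39 and 25 peaks. The cartilage genes Col9a1, Col9a2 and Col9a3 had 30, 35 and 23 peaks, 7, 12 and 8 peaks, and 7, 20 and 8 peaks. Col9a3 had a v2 over v1 ratio of 2.09 (0.849 to 5.85), so its interval included 1, and the call was lost with gene spans alone, with 20 kb flanks and among wide peaks. Col20a1 had 26, 25 and 21 peaks, close to even by number over lists of unequal length. The windows of Col9a1 and Col19a1 touch and shared 0, 1 and 2 peaks.

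Network-forming collagens include Col8a1 and Col8a2, found in vessel walls and the cornea, and Col10a1 of growth plate cartilage. Col8a1 had 22, 42 and 15 peaks in v1, v2 and v3 and Col8a2 had 16, 22 and 9. Col10a1 had 13, 15 and 6 peaks in the shortest window of the group, or 7.60, 8.77 and 3.51 per 10 kb, the highest values of all collagens in v1 and v2. It lies inside the span of Nt5dc1, and each of its 13, 15 and 6 peaks also lay in that gene. Of all collagens, 20 of 44 had another protein-coding gene span in the window, and 3.56%, 2.5% and 3.31% of the peaks counted for each collagen overlapped one. For the 3 network-forming genes together, v3 over v2 was 0.631 (0.400 to 0.972).

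The multiplexins Col15a1 and Col18a1 lie beside basement membranes, and Col18a1 holds endostatin, a fragment that acts on vessel growth. They had 43, 57 and 39 peaks and 43, 71 and 38 peaks, with ratios of 1.09 (0.790 to 1.5) for v3 over v1, with 1.0 (0.744 to 1.34) for v3 over v2. Col7a1 had 19, 29 and 11 peaks, Col28a1 had 59, 85 and 40, and Col26a1 had 23, 52 and 36. Col26a1 thus had more peaks in v3 than in v1, with a ratio of 1.90 (1.10 to 3.36).

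Counted over single genes, few collagens differed by 2-fold or more. A gene was called when its share ratio, with 0.5 peaks scaled to library totals added, was at least 2 or at most 0.5 and the pair of libraries held at least 10 peaks over it. Between v2 and v1, 3 of 44 were higher in v2 (Col6a2, Col5a2 and Col9a3) against 2.65% of all protein-coding genes, and 0 were lower against 0.483%. Between v3 and v1, 2 of 43 were higher in v3 (Col6a3 and Col6a5) against 3.26%, and 2 were lower (Col11a1 and Col1a2) against 1.58%. Between v3 and v2, 0 of 44 were higher against 1.76%, and 3 were lower (Col6a2, Col11a1 and Col1a2) against 2.64%. These counts of 0 to 3 genes are small, and of the called pairs the interval included 1 for Col9a3 in v2 over v1, for Col1a2 in both of its pairs and for Col6a2 in v3 over v2.

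Direction was also counted over all collagens. The share ratio of v2 over v1 was above 1 for 35 of 44 collagens, beside 44% of all protein-coding genes, with 6 of 6 Col6, 5 of 6 Col4, 8 of 11 fibrillar and 16 of 21 other genes. It was above 1 for 26 of 43 in v3 over v1, beside 61.5%, and for 15 of 44 in v3 over v2, beside 64.3%. Median log2 share ratios of collagens were 0.27, 0.08 and -0.18 for v2 over v1, v3 over v1 and v3 over v2, and those of all protein-coding genes -0.06, 0.09 and 0.15. The 3 pairs share libraries and are not independent of each other.

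Merging overlapping peaks of the 3 libraries gave 2214 regions over collagen windows. Of these 719, or 32.5% (95% exact interval 30.5 to 34.5), had a peak in all 3 libraries, against 46.6% of the 490738 regions over all protein-coding windows. Regions found in v2 alone made up 35.4% of collagen regions and 21.2% of all. The Col6 group had 57 of 195 regions (29.2%, 23.0 to 36.2) in all 3 libraries, and 37 regions (19.0%) in v2 and v3 against 4 (2.05%) in v1 and v2. Fibrillar genes had the opposite order, with 78 of 445 regions (17.5%) in v1 and v2 and 21 (4.72%) in v2 and v3. Over all protein-coding windows these shares were 13.1% and 7.34%. Col4 had the highest share in all 3 libraries of the 4 groups, 37.3% (31.4 to 43.5).

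**Figure D5:**
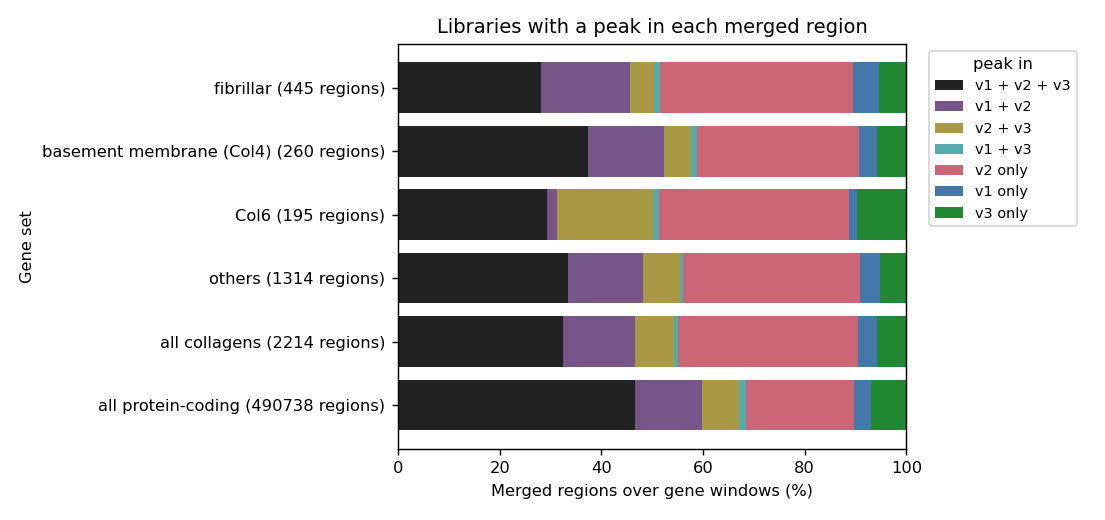
Share of merged regions (percent) by the libraries that hold a peak in them, for each collagen group and for all protein-coding gene windows. Col6 has 19.0% of its regions in v2 and v3 and 2.05% in v1 and v2, and the fibrillar genes have 4.72% and 17.5%.

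By single gene, Col20a1 had 66.7% and Col1a1 61.5% of their regions in all 3 libraries. Col11a1 had 12.7%, and Col6a2 had 13 of its 18 regions (72.2%) in v2 alone. The single start regions named above for Col1a2, Col4a1 and Col6a2 were among those found in all 3.

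Genes that make, trim, bind or cleave collagen were followed in 5 lists with 58 genes, all found in the gene table. The 15 genes of chain folding and modification had 11, 14 and 9 peaks as medians and a peak at an end of every gene in every library. Of these P3h2, a prolyl 3-hydroxylase, had 48, 55 and 38 peaks, and Colgalt2 had 31, 55 and 34. The 14 genes of propeptide processing and crosslinking had medians of 20.5, 31.5 and 16 peaks, led by the procollagen proteases Adamts3 with 99, 132 and 74 peaks and Adamts2 with 69, 116 and 50. Of that list 13, 14 and 14 genes had a peak at an end, and the crosslinking enzyme gene Loxl2 had none in v1.

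The 12 basement membrane partners had medians of 22.5, 41 and 23 peaks, and each had a peak at an end in every library. The laminin genes Lama2 and Lamc1 had 200, 282 and 121 peaks and 65, 79 and 53 peaks. The 9 collagen receptors had medians of 29, 31 and 19 peaks, with 43, 63 and 27 at Itga1 and 40, 64 and 34 at Itga11, which encode integrin chains that bind collagen. A peak lay at an end of 7, 8 and 8 of these receptor genes in v1, v2 and v3. The 8 genes of collagen-degrading enzymes had medians of 8, 9.5 and 7.5 peaks, with 26, 36 and 26 at the uptake receptor gene Mrc2 and 11, 14 and 9 at the gelatinase gene Mmp2. Of this list 6, 6 and 5 genes had a peak at an end. Over all protein-coding genes the share with a peak at an end was 81%, 84.8% and 80.6%.

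Past 2-fold were 0 of 53 counted pathway genes for v2 over v1 in either direction, beside the 2.65% and 0.483% of all genes. For v3 over v1, 1 of 52 was higher, beside 3.26% of all genes, and 1 was lower, beside 1.58%. The higher one was Lair1, an inhibitory collagen receptor of immune cells with 4, 7 and 8 peaks, whose ratio of 2.43 (0.652 to 11.0) had an interval that included 1. The lower one was Tll1, which encodes a protease that trims procollagen. Tll1 had 94, 84 and 23 peaks, with v3 ratios of 0.298 (0.180 to 0.474) over v1 and 0.455 (0.274 to 0.729) over v2. For v3 over v2 it was the 1 of 53 past 2-fold lower, beside 2.64% of all genes, and 0 were higher, beside 1.76%. The related protease gene Tll2, with 26, 57 and 43 peaks, had a v3 over v1 ratio of 2.01 (1.21 to 3.41), which fell just under 2-fold (log2 0.99) once the pseudocount was added. It is named because of its value.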

How the data were processed

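Each library's values are a peak list that the authors deposited, which gives positions in build mm10 and no score. The names ArchR and MACS2 are listed in the submitters' processing notes. The aligner, tool versions and calling threshold: not given in the sources used here; read depth is unknown.

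Peaks overlapping a window (gene span plus 5 kb on each side, by at least 1 bp) were counted against RefSeq gene spans of GRCm38.p6, the same build, with Python 3.11.15, numpy 2.4.6, pandas 2.3.3 and scipy 1.17.1. A peak in several windows of a group was counted once. For log2 values of share ratios, 0.5 peaks were added as a pseudocount scaled to library totals, and genes with fewer than 10 peaks in a pair of libraries were left out of counts. Intervals are 95% exact binomial ones for counting error only. Counting and ratios were tested on simulated data. Alternatives were other flanks, wide peaks, peak midpoints, other minimums and denominators. Members and lists were chosen with earlier results of these data known. All fibrillar, Col4 and Col6 genes are named. Of the others, the 6 with most peaks, each past 2-fold and each without a start or end peak are described, and the rest by their peaks. Of each pathway list the 2 genes with most peaks and each past 2-fold are named.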

Additional observations from a re-analysis of the deposited data

How the results depend on the processing

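No paired analysis was possible because each version has 1 library. No pooled share ratio with an interval off 1 changed direction. Ratios near 1 did: for v3 over v1, the other collagens went from 0.988 to 1.012 (20 kb flanks) and 1.062 (wide peaks), the fibrillar genes from 0.859 to 1.006 (wide peaks), all collagens from 1.019 to 0.973 (share of peaks over protein-coding windows), and Col4 from 1.010 to between 0.964 and 0.997 under 4 alternatives. Col6 v3 over v2 went from 1.054 to 0.948 with that denominator. For the Col6 genes the share ratio stayed between 1.72 and 1.98 for v2 over v1 and between 1.82 and 2.14 for v3 over v1. For all collagens, v3 over v1 was 1.12 among peaks wider than 500 bp, and v3 over v2 was 0.769 as a share of peaks over protein-coding windows, where the other collagens gave 0.770. Collagens at least 2-fold higher in v3 than v1 numbered 4 with 20 kb flanks (2 as reported). Those at most 0.5-fold numbered 1 with a minimum of 20 peaks and 0 among wide peaks (2 as reported). For v3 over v2, 5 were at most 0.5-fold with gene spans alone and 5 among wide peaks (3 as reported). The genes called changed more than the counts. Of the 5 among wide peaks, only Col6a2 was among those reported. For v2 over v1, 4 were at least 2-fold with gene spans alone and 3 among wide peaks (3 as reported), and Col6a2 alone was shared in each case. With 20 kb flanks 2 were at most 0.5-fold for v3 over v1, but Col10a1 stood in place of Col1a2. Pathway genes past 2-fold for v2 over v1 numbered 1 higher with gene spans alone, 2 higher among wide peaks and 1 lower among wide peaks (0 as reported). For v3 over v1, 0 were higher with at least 20 peaks and with 20 kb flanks (1 as reported). For v3 over v2, 1 was higher with gene spans alone (0 as reported), and 2 were lower with gene spans alone and 0 among wide peaks (1 as reported). Median peaks per collagen window were 8, 16.5 and 11 among wide peaks, so that v3 stood above v1 there (22.5, 40 and 21 with all peaks). Alternatives for the pathway lists and merged regions were chosen after seeing the data. The cause of these shifts was not tested. Read depth limits the peaks each list can hold and is unknown.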
